A study of Mus musculus with 22 samples.

Results

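Nup62cl, Gm34280 and Serpine3 are 3 of the 53801 genes counted in mouse retina and in mouse retinal pigment epithelium (RPE) by bulk RNA-Seq. They were chosen by the size of the difference in their RPE counts between genotypes: Nup62cl and Gm34280 are among the largest rises, and Serpine3 is the largest fall among genes with a mean of at least 1 CPM (counts per 1e+06 counts, scaled by TMM) whose WT and KO libraries did not overlap. The choice rests on the RPE contrast itself, so their RPE values are given as a description with no test, and tests were made only in the retina. The groups were WT and AdipoR1-/- (KO) mice on a C57BL/6J background at P30, and each of the 4 groups (WT retina, KO retina, WT RPE, KO RPE) had 4 libraries. The KO allele is a whole-body disruption of the adiponectin receptor gene AdipoR1, made in 129-derived cells and backcrossed, and mice of both sexes were used. RPE cells were detached from posterior eyecups, so an RPE library can also hold RNA of the retina and of other eye tissues. In addition, 1 single-cell library per genotype and age was made at P19, P25 and P30, each from 4 pooled retinae per the labels, and the study describes the cells as of the retina and RPE.

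The RPE is the pigmented layer behind the photoreceptors. It regenerates the visual chromophore, takes up shed outer segments and transports nutrients and ions between the choroid and the retina. Nup62cl is named for its likeness to the C-terminal part of nucleoporin Nup62, a protein of the central channel of the nuclear pore. Serpine3 is a member of the serpin superfamily, which holds many inhibitors of serine proteases. Gm34280 is a noncoding antisense RNA without a known role.

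In GENCODE M21 (GRCm38), Nup62cl (ENSMUSG00000072944) lies on the minus strand of the X chromosome at chrX:140006805-140062712. It has 5 transcripts and 2234 exonic bases. No other gene overlaps it, and the protein-coding gene Pih1h3b begins 167 bases away on the opposite strand, so that the genes stand head to head. Gm34280 (ENSMUSG00000109559) lies on the plus strand at chr7:99694297-99712777 and has 5 exons with 2114 bases. Most of its span is inside Slco2b1, a gene for an organic anion transporter on the other strand, but only 78 of its exonic bases (3.7%) overlap exons of Slco2b1. Serpine3 (ENSMUSG00000091155) lies on the plus strand at chr14:62663667-62692243 and has 9 exons with 1402 bases. Of these, 348 bases (24.8%) overlap exons of Ints6, a subunit gene of the Integrator complex on the minus strand. The sources used here do not give whether reads were counted by strand. Without it, reads of Gm34280 and Slco2b1, or of Serpine3 and Ints6, cannot be told apart where the exons overlap.

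The start regions are shown because the counts of these genes were among those that differed most between WT and KO RPE. Counts per gene do not show which start was used. The sequences are RefSeq promoter windows (GRCm38.p6), read 5′ to 3′ on the strand of the gene, and capitals mark the letters of 2 of the 6 motifs searched, CCAAT and TTCNNNGAA. The Nup62cl window (chrX:140062713-140062818, minus strand) is the stretch of the gap towards Pih1h3b that the table holds.
Nup62cl: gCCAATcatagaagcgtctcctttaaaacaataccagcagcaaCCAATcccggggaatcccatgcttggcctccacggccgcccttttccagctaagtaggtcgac
Serpine3: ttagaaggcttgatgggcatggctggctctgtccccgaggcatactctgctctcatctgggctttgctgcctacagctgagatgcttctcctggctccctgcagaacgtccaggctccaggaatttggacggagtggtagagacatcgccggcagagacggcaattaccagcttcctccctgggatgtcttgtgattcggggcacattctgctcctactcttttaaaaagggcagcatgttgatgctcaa
Gm34280: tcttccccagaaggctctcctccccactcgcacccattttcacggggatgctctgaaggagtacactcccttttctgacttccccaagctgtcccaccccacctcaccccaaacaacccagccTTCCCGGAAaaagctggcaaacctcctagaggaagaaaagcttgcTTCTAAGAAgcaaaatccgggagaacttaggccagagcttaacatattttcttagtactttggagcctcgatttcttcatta

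The Serpine3 window covers chr14:62663417-62663666, the 250 bases before a start at which RefSeq and GENCODE coincide. The Gm34280 window covers chr7:99690975-99691224 and ends at the first of 2 RefSeq starts, 99691225, which lies upstream of the GENCODE start, 99694297. The second RefSeq start, 99694145, is nearer to the GENCODE start, and the window before it is not printed. CCAAT, searched on both strands, was found in 2 places in the Nup62cl window, and 33.8% of all 32851 promoter windows of 250 bases hold it. The Nup62cl window has only 106 bases and begins at the GENCODE start, so the shares given here are not for windows like it. TTCNNNGAA was found in 2 places in the Gm34280 window and is held by 7.02% of the windows. The other 4 motifs, also searched on both strands, were TAATCC (held by 6.25% of the windows), CACGTG (held by 6.02%), CATGTG (held by 12.3%) and TATAAA (held by 12.4%). None of the 6 motifs was found in the Serpine3 window or in the window before the second RefSeq start of Gm34280. A match is a likeness of letters only, and these windows are not shown to be bound by any factor.

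Total counts per library were between 22734843 and 35118164 in the retina and between 20133143 and 38409496 in the RPE. Adipor1, the disrupted gene, was at 600 ± 8.1 CPM in WT retina (SD, n = 4) and at 139 ± 2.5 in KO retina, and 409 ± 49 in WT RPE and 146 ± 5.8 in KO RPE, so that every KO library was below every WT library of its tissue. The 18 RPE markers summed to between 42278 and 64614 CPM in the RPE libraries and between 1106 and 1326 CPM in the retina libraries. Other tissues contributed unequally to WT RPE. The 12 rod markers summed to 17694 and 17660 CPM in WT RPE libraries 2 and 3, against between 761 and 6166 in the other 6 RPE libraries. The 11 lens genes summed to 509 and 1047 CPM in WT RPE libraries 2 and 4, against between 19.8 and 46.9 CPM in the other 6. By Xist and Ddx3y, libraries 1 and 2 of each bulk group came from males and libraries 3 and 4 from females.

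Nup62cl was almost absent from WT RPE and was well expressed in KO RPE. It had 11, 13, 12 and 9 counts in WT RPE libraries 1 to 4, and 816, 977, 899 and 871 counts in KO RPE libraries 1 to 4. The lowest KO library was 62.6-fold above the highest WT library in CPM, so the groups were far apart. The mean level was 0.359 ± 0.077 CPM in WT RPE and 34.2 ± 3.6 CPM in KO RPE (SD, n = 4), and the fitted log2 fold change was 6.59 (SE 0.17). From summed counts, 45 in WT and 3563 in KO, the ratio was 99.1 with a 95% interval of 73.9 to 136 that covers counting error only. It ranked first of 18989 genes tested. On a per-length scale (TPM), Nup62cl moved from above 3.02% to above 81.0% of the genes tested. The genes tested had passed a filter on low counts, so a low place of Nup62cl in WT RPE was built in. These places restate the contrast that chose the gene. Nup62cl is X-linked, and the male KO libraries (29.5 and 38.3 CPM) lay on both sides of the female ones (34.0 and 34.9 CPM).

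Gm34280 changed in the same direction at a lower level. It had 1, 4, 4 and 1 counts in WT RPE and 52, 53, 58 and 74 counts in KO RPE. No KO library came near a WT library, and the lowest KO value was 16.3-fold above the highest WT value. The mean rose from 0.0735 ± 0.041 to 2.28 ± 0.47 CPM (SD, n = 4), a fitted log2 fold change of 4.83 (SE 0.36). With only 10 counts in all of WT RPE, the ratio of summed counts, 29.7, had a 95% counting interval of 15.9 to 62.7.

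Serpine3 was abundant in WT RPE and low in KO RPE, with wide spread between WT libraries. WT RPE libraries 1 to 4 had 2657, 8037, 1870 and 3692 counts, which is 72.3, 198, 54.0 and 193 CPM. KO RPE libraries 1 to 4 had 144, 134, 54 and 271 counts, which is 5.20, 5.25, 2.04 and 10.9 CPM. The groups did not overlap, and the lowest WT library was 4.98-fold above the highest KO library. The mean was 129 ± 77 CPM in WT RPE and 5.84 ± 3.7 CPM in KO RPE (SD, n = 4), 22.2-fold lower, with a fitted log2 fold change of -4.47 (SE 0.65). On the TPM scale Serpine3 moved from above 97.3% to above 51.0% of the genes tested. The SE of the log2 fold change was larger than that of Nup62cl, although Serpine3 had many more counts in WT, and its libraries varied more among themselves.

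**Figure D1:**
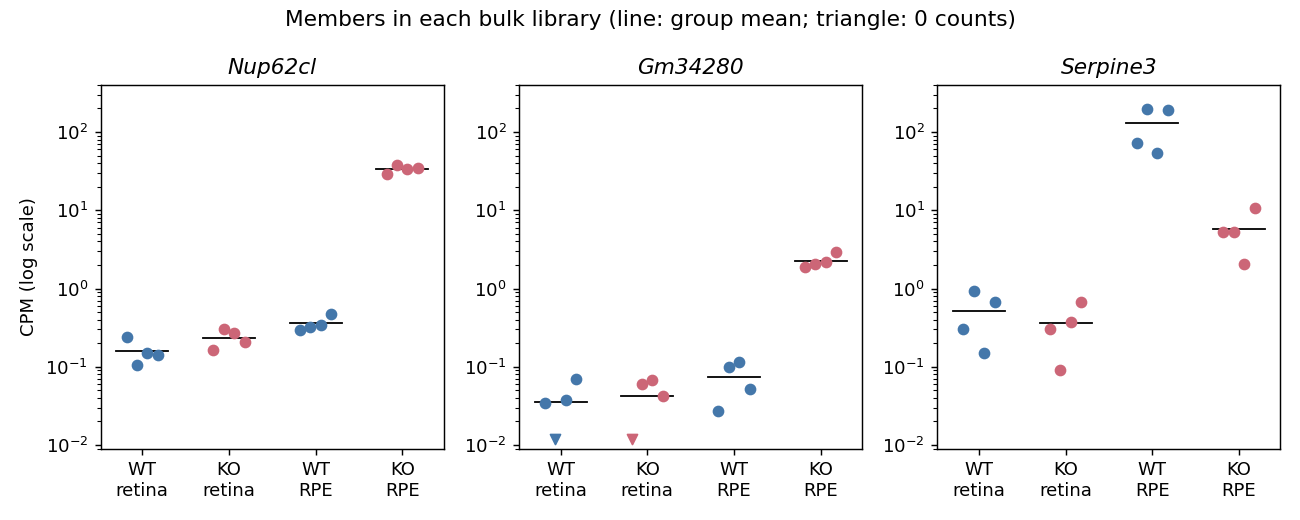
CPM of Nup62cl, Gm34280 and Serpine3 on a log axis in each bulk library of WT (blue) and KO (red) retina and RPE, with points for libraries 1 to 4 from left to right, a line at each group mean (n = 4) and triangles for libraries with 0 counts. KO RPE stands above the other 3 groups for Nup62cl and Gm34280, and WT RPE stands above the other 3 groups for Serpine3.

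The separation of groups is the measure that chose these genes. Of all genes tested in the RPE, 7.37% had every KO library above every WT library and 7.81% had every KO library below, and nothing is read from the members' own separation against these shares. Among genes with a mean of at least 1 CPM over the RPE libraries and no overlap, with the DEG thresholds of adjusted p below 0.05 and a 1.5-fold change serving only to delimit the list, Nup62cl was first and Gm34280 took rank 5 from the top, and Serpine3 was first from the bottom. These ranks describe the choice and are no test. The genes around them were close. C4b, a complement gene, came just after Gm34280 with a log2 fold change of 4.74 (SE 0.30), and Fgf2os came just before it with 5.08 (SE 0.83). Cfi, the complement factor I protease, was second with 5.43 (SE 0.34), and it differed from Nup62cl by more than the SE of either. On the other side Igfbp1, a binding protein of insulin-like growth factors, came just after Serpine3 with -4.19 (SE 0.83), a gap smaller than either SE. Over all tested genes, without the level and overlap rules, Gm34280 was seventh from the top and Serpine3 was 16th from the bottom.

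**Figure D2:**
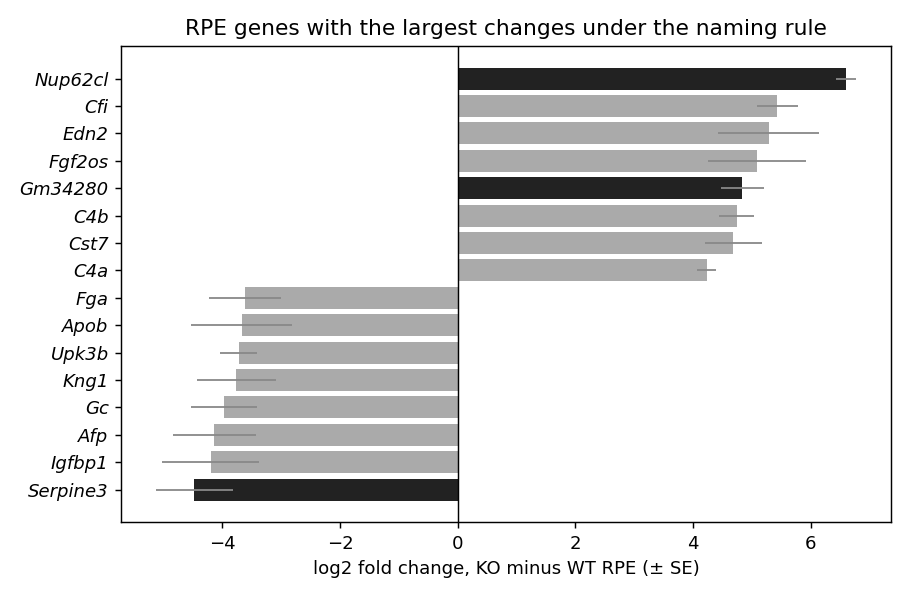
Fitted log2 fold changes (KO minus WT, error bars are SE, n = 4 per group) of the 8 largest rises and 8 largest falls in the RPE under the rule that named the members, which are in black. Nup62cl reached 6.59, the next gene Cfi 5.43, and Serpine3 -4.47.

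Per exonic base, Serpine3 and Nup62cl exchanged places between the genotypes, and Gm34280 was the lowest in both. In WT RPE the means were 246 ± 150 TPM for Serpine3, 0.424 ± 0.066 TPM for Nup62cl and 0.0947 ± 0.057 TPM for Gm34280 (SD, n = 4). In KO RPE they were 39.7 ± 4.6 TPM for Nup62cl, 10.7 ± 6.5 TPM for Serpine3 and 2.79 ± 0.53 TPM for Gm34280. Neighbours in each order did not overlap between libraries. The lowest Serpine3 library of KO RPE had 3.89 TPM and the highest Gm34280 library had 3.52 TPM, so that pair was close.

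In the retina, whose libraries were not used to choose the members, no difference passed a test. Nup62cl had 7, 3, 4 and 4 counts in WT retina and 6, 10, 8 and 5 counts in KO retina. The groups overlapped, and both means, 0.159 ± 0.056 and 0.236 ± 0.061 CPM, were below that of WT RPE. Nup62cl did not pass the filter on low counts, and its difference of 0.43 in mean log2 CPM had p = 0.114 in a two-sided exact permutation test, where 0.0286 is the smallest p that 4 against 4 allows. The summed counts gave a ratio of 1.47 with a counting interval of 0.792 to 2.82, so a rise as large as in the RPE was outside that interval.

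Gm34280 had at most 2 counts in any retina library of either genotype. Its difference in mean log2 CPM was 0.089 (p = 0.771, exact permutation test), and the ratio of summed counts, from 4 in WT and 5 in KO, was 1.14 (0.246 to 5.77). A change of several fold was not detectable at this depth. Serpine3 had 9, 26, 4 and 19 counts in WT retina and 11, 3, 11 and 16 in KO retina. These overlapped widely, and the fitted log2 fold change was -0.59 (SE 0.54), with an adjusted p of 0.452 by edgeR's quasi-likelihood test over 19381 genes. The summed counts alone gave 1.55-fold more in WT (1.02 to 2.36), but that interval leaves out the spread between libraries. WT retina libraries 2 and 4, the highest for Serpine3, also had the highest lens sums of the WT retina, 16.4 and 75.8 CPM against 2.72 and 3.47 CPM in libraries 1 and 3. In KO retina the order was different. Library 2 had the highest lens sum, 8.45 CPM, and the lowest Serpine3, 0.0899 CPM, and library 4 had a lens sum of 5.42 CPM and the highest Serpine3, 0.673 CPM. The part of these other cells in the Serpine3 value was not tested.

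In WT RPE, libraries 2 and 4, with lens sums of 509 and 1047 CPM, had 198 and 193 CPM of Serpine3, and libraries 1 and 3, with 33.7 and 37.9 CPM of lens genes, had 72.3 and 54.0 CPM. All 11 lens genes passed the count filter in the RPE, all had a negative log2 fold change, and 2 passed the test, where 3.89% of all genes were called lower. Without WT RPE library 1, 9 lens genes were called lower, and DESeq2 called 8 with all libraries. Without WT RPE libraries 2 and 4, the log2 fold change of Serpine3 was -3.44 (SE 0.56). Serpine3 was chosen for WT and KO libraries that did not overlap, so the remaining WT libraries had to be above every KO library. This value is a description and no test. KO RPE libraries 1 and 3 were the ends of the range of lens sums in KO RPE, with 46.9 and 19.8 CPM, and had 5.20 and 2.04 CPM of Serpine3, but KO RPE library 4, with a low lens sum of 21.7 CPM, had the highest Serpine3 of KO RPE, 10.9 CPM. Bfsp2 and Lim2 were present in every RPE library and made up much of the low sums. In KO RPE, with a mean lens sum of 29.5 CPM, they had 12.2 ± 3.2 and 6.40 ± 0.49 CPM. Cryaa, a crystallin, had 3.15 ± 3.9 CPM there and between 0 and 515 CPM in WT RPE. The order of low lens sums is thus not an order of crystallins alone. WT RPE libraries 2 and 3, with high rod sums, did not share a Serpine3 level. Without them, the log2 fold change of Gm34280 was 5.82 (SE 0.44), since these libraries held 8 of its 10 counts in WT RPE. In bulk tissue, fewer cells of a type and less RNA per cell cannot be told apart.

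**Figure D3:**
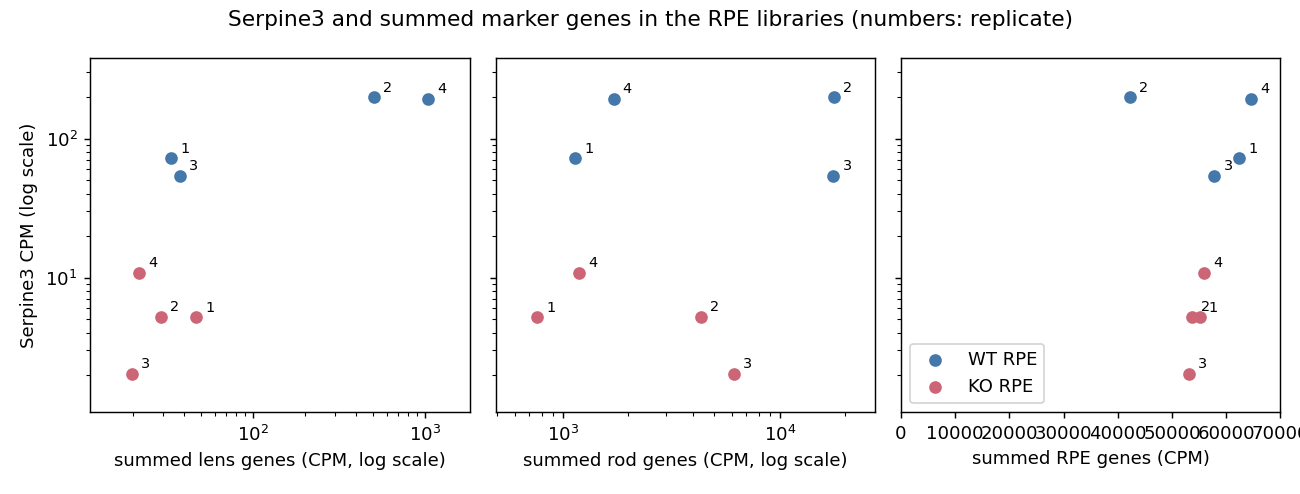
Serpine3 CPM (log axis) in the RPE libraries against the summed CPM of 11 lens genes (log axis), 12 rod markers (log axis) and 18 RPE markers (linear axis), with WT in blue, KO in red and the replicate number beside each point. WT libraries 2 and 4 have the highest Serpine3 and the highest lens sums, and every WT library is above every KO library.

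The level of RPE markers differed less than the members did. Their sum was 56775 ± 10070 CPM in WT RPE and 54467 ± 1296 CPM in KO RPE (SD, n = 4). Of the 18 markers, 1 rose and 2 fell, where 2.84% of all genes rose and 3.89% fell. Rpe65, the isomerase of the visual cycle, was among those that fell, from 4070 ± 889 to 2128 ± 33 CPM (adjusted p = 0.0159, edgeR). Per 1000 counts of the RPE markers, Nup62cl had between 0.00480 and 0.00759 counts in WT and between 0.535 and 0.712 in KO. Serpine3 had between 0.934 and 4.69 in WT and between 0.0384 and 0.194 in KO. On this scale the WT and KO ranges of both genes stayed apart. These are the RPE counts that chose the members, and the marker sums of WT RPE spanned only 42278 to 64614 CPM. The scaled values are thus a description and no test. Microglia and macrophage markers moved with genotype: 11 of 12 rose in KO RPE, where 2.84% of all genes rose. Their sums were between 394 and 644 CPM in WT and between 755 and 849 CPM in KO. Csf1r, the gene that did not pass, took most of each sum (485 ± 105 and 559 ± 12 CPM), and C1qa, a complement gene of these cells, rose from 10.5 ± 2.9 to 47.6 ± 7.3 CPM (adjusted p = 0.00129, edgeR). Their part in the members' RPE values was not tested. All 12 rose in KO retina as well, where 16.2% of all genes rose, from sums between 49.2 and 53.1 CPM to sums between 204 and 245 CPM. These sums were below those of both RPE groups. In every retina library Nup62cl stayed at or below 0.300 CPM and Gm34280 at or below 0.0705 CPM. Whether these cells are alike in the retina and the RPE was not tested, so nothing on the source of the members' RNA is read from the retina.

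The likeness of Nup62cl to a nuclear pore protein was followed to the nuclear pore genes. Nup62 itself, the nearest relative by name, had 21.4 ± 2.3 CPM in WT RPE and 21.6 ± 1.7 CPM in KO RPE (SD, n = 4; adjusted p = 0.964, edgeR). None of the 28 nuclear pore genes tested in the RPE passed an adjusted p of 0.05, where 6.73% of all genes did, and none passed by DESeq2 or limma-voom, while 1 had an unadjusted p below 0.05. The median of their log2 fold changes was 0.027, against -0.019 for all genes. In the retina, where 30.9% of all genes passed (16.2% higher and 14.7% lower in KO), 1 of the 28 rose and 10 fell, by at most 0.31 on the log2 scale for those that fell. Nup88, a subunit of the cytoplasmic side of the pore, fell from 84.5 ± 2.5 to 71.2 ± 3.1 CPM (adjusted p = 7.0e-04, edgeR), and Ndc1, which anchors the pore in the membrane, fell from 23.0 ± 1.5 to 18.5 ± 1.1 CPM (adjusted p = 0.00286, edgeR). The difference between the tissues was not tested.

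Serpins, the family of Serpine3, moved both ways in the RPE. Of the 32 other serpin genes tested there, 7 rose and 6 fell, where 2.84% of all genes rose and 3.89% fell, and the median log2 fold change was 0.57. Without WT RPE library 1, 11 rose and 6 fell. Serpina3n, an acute-phase inhibitor of the antichymotrypsin type made by reactive glia, among other cells, rose from 133 ± 92 to 1453 ± 123 CPM (adjusted p = 0.00646, edgeR). Serpina3m, Serpina3e-ps, Serpina3f and Serpina3g rose with it at levels of at most 4.74 CPM. These are near-identical copies in a gene cluster, and reads of one may have been counted on another. Serpinf2, the inhibitor of plasmin, rose from 4.43 ± 1.3 to 11.6 ± 1.8 CPM (adjusted p = 0.0112, edgeR). The 6 that fell were Serpinc1, which is antithrombin, and Serpina1a to Serpina1e, the antitrypsin copies, which cannot be told apart with certainty. Serpina1c fell from 3.88 ± 1.4 to 0.401 ± 0.21 CPM (adjusted p = 0.00475, edgeR). None of the 6 exceeded 6.29 CPM in WT RPE, against 129 CPM of Serpine3. These are known mainly as liver products, and other liver genes were among the 8 largest falls beside Serpine3, such as Afp (log2 fold change -4.13, SE 0.70) and Apob (-3.67, SE 0.86). What they share was not tested.

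Serpine2, a relative by name that inhibits thrombin, rose in the RPE, opposite in direction to Serpine3, from 58.1 ± 10.4 to 86.7 ± 4.8 CPM (adjusted p = 0.0285, edgeR). In the retina 9 of 17 serpins rose and 1 fell, where 16.2% of all genes rose and 14.7% fell. Serpina3n rose from 4.17 ± 0.87 to 126 ± 4.3 CPM (adjusted p = 8.3e-13, edgeR), and Serping1, the C1 inhibitor of the complement cascade, rose from 7.37 ± 1.3 to 66.5 ± 1.3 CPM (adjusted p = 6.2e-11, edgeR). Serpini1, the neuronal serpin, fell from 69.9 ± 2.2 to 59.7 ± 1.4 CPM (adjusted p = 9.5e-04, edgeR).

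The plasminogen system is a set of extracellular proteases with their receptors and inhibitors. Of its 13 genes tested in the RPE, which include Serpine2 and Serpinf2, 2 rose and 1 fell, where 2.84% of all genes rose and 3.89% fell. The gene that fell was Plg, which encodes plasminogen, from 2.80 ± 0.99 to 0.260 ± 0.22 CPM (adjusted p = 0.0159, edgeR). The risers were Serpine2 and Serpinf2, both inhibitors. In the retina, where 16.2% of all genes rose, 7 of 10 rose and the other 3 did not pass the test. Plat, the tissue plasminogen activator, rose from 11.7 ± 1.5 to 24.3 ± 1.5 CPM (adjusted p = 9.3e-07, edgeR), and Plau, the urokinase activator, rose from 0.232 ± 0.12 to 0.969 ± 0.14 CPM (adjusted p = 3.3e-04, edgeR). The retina and RPE thus gave different counts, but the difference between tissues was not tested.

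Genes beside the members on the chromosome were followed, 5 on each side. Of the 10 nearest genes of Nup62cl, 4 were tested in the RPE. None of them passed by edgeR, where 6.73% of all genes did, while 2 had an unadjusted p below 0.05. By DESeq2 2 passed, and by limma-voom 1 passed. Cldn2, a claudin, had 148 ± 44 CPM in WT and 91.8 ± 6.5 CPM in KO (adjusted p = 0.108, edgeR). Frmpd3 had 1.00 ± 0.94 and 4.96 ± 1.1 CPM (adjusted p = 0.0690, edgeR), and it passed with the replicate block (adjusted p = 0.0295). Pih1h3b, which starts beside Nup62cl, had a mean of 0.0468 CPM in WT RPE and 0.200 CPM in KO RPE, with at most 11 counts in any RPE library.

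Slco2b1, the host of Gm34280 on the other strand, rose in both tissues and was the 1 of 4 tested neighbours of Gm34280 that passed in the RPE, where 6.73% of all genes did. In the RPE it went from 8.75 ± 1.6 to 14.4 ± 1.4 CPM (adjusted p = 0.0240, edgeR), a 1.65-fold rise against the 31.0-fold rise of Gm34280. In the retina it went from 4.00 ± 0.51 to 9.23 ± 0.31 CPM (adjusted p = 8.7e-07, edgeR), where Gm34280 remained at 0 to 2 counts. Levels of the antisense gene and its host thus did not move in proportion between the tissues. Ints6, which shares exonic bases with Serpine3, had 18.4 ± 2.0 CPM in WT RPE and 18.0 ± 1.5 CPM in KO RPE (adjusted p = 0.880, edgeR). Of the 4 tested neighbours of Serpine3 in the RPE, the processed pseudogenes Gm5802 and Gm35595 were called lower in KO, where 3.89% of all genes were. Gm35595 fell from 3.43 ± 1.2 to 0.753 ± 0.27 CPM (adjusted p = 0.0115, edgeR), and Gm5802 fell from 5.35 ± 1.5 to 2.55 ± 0.66 CPM (adjusted p = 0.0480, edgeR), which the replicate block did not keep (adjusted p = 0.0558). Reads of a pseudogene can come from its parent gene.

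The genes whose log2 CPM was most alike to a member across the 16 bulk libraries were listed by Pearson's r over 17325 genes, as a description without a test. For Nup62cl they were Daam1, Ift57, Zfp251, Gm10564 and Rab33b, with r between 0.963 and 0.991. Daam1, a formin that organises actin, had means of 89.0 CPM in WT retina, 93.3 CPM in KO retina, 94.7 CPM in WT RPE and 355 CPM in KO RPE. Ift57, a subunit of the intraflagellar transport complex, had 23.4, 37.1, 37.5 and 191 CPM in the same order. Both genes were expressed in every group, unlike Nup62cl, and stood out in KO RPE. For Gm34280 the list was Nup62cl, Daam1, Zfp251, Ift57 and Lpo, with r between 0.945 and 0.986, so 3 names were on both lists. The 16 libraries share tissue and genotype within groups, and both members were far higher in the 4 KO RPE libraries than in the other 12.

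For Serpine3 the most alike genes were Wfikkn2, Rps19-ps7, Stox1, Gm6444 and Itpk1, with r between 0.962 and 0.971. Wfikkn2, a secreted protein with several protease inhibitor domains that binds growth factors, had 3.54 CPM in WT retina, 3.70 CPM in KO retina, 451 CPM in WT RPE and 59.0 CPM in KO RPE. Its level in the retina was under 1% of that in WT RPE, as for Serpine3. Stox1 had 18.9 CPM in WT RPE and 5.57 CPM in KO RPE. Rps19-ps7 and Gm6444 are pseudogene models whose reads can come from their parent genes.

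The single-cell libraries held 26764 cells and 19324 genes, among them Nup62cl and Serpine3 but not Gm34280. Cells had a median of between 1349 and 4357 unique molecular identifiers (UMIs) per library, the P30 libraries being the shallowest, and a library shared between 12 and 22 barcodes with others. The labels give 1 chemistry for all, but one way in which barcodes begin was found only at P30 and another only at P19 and P25, so the chemistry may differ and levels were not compared between ages. Since each age had 1 WT and 1 KO library, differences between them could not be tested. Cells of the RPE were taken as those with at least 5 of 11 RPE markers, the list without its pigment genes, its transcription factors and Trpm1. There were 61 such cells (0.228% of all cells), 8 of them with exactly 5 markers, and 26 more cells had 4. Of the 61 cells, all had Ttr, which carries retinol and thyroxine, and 75.4% had Rpe65.

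Serpine3 UMIs were concentrated in these cells. They held 237 of 244 UMIs (97.1%), in 10 of 61 cells (16.4%, exact 95% interval 8.15 to 28.1%), with a median depth of 1579 UMIs per cell. The other 26703 cells, with a median of 2671 UMIs, held 7 UMIs in 7 cells (0.0262%). At P19, 1 of 13 WT cells held 101 UMIs and the other 12 held 0, and 5 of 20 KO cells held 51, 42, 12, 8 and 4. At P25, 4 of 6 WT cells held 9, 5, 3 and 2 UMIs and 0 of 3 KO cells held any. At P30, 0 of 10 WT cells and 0 of 9 KO cells held any. Since most UMIs sat in a few cells, 0 UMIs in so few cells sets no firm limit on the level: 3 UMIs spread evenly would be 234 CPM in the KO cells at P25 and 77.6 and 151 CPM in the WT and KO cells at P30. In sum, WT and KO cells both held Serpine3 at P19, and the few cells at P30, the age of the bulk libraries, allowed no comparison.

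A few cells carried most of the UMIs, so the level over all RPE cells of a library says little about a typical cell. At P19 it was 2276 CPM in WT (exact Poisson interval 1854 to 2766 CPM) and 3181 CPM in KO (2631 to 3813 CPM), and these intervals cover counting error only. The WT value rested on 1 cell. Wfikkn2, the gene most alike to Serpine3 in bulk, was detected in 8 of the 10 cells with Serpine3 and in 16 of the 51 without. These counts pool all libraries, and every RPE cell at P30 was among those without Serpine3. Wfikkn2 was in 4 of 13 WT and 13 of 20 KO cells at P19. It was in 4 of 6 and 2 of 3 at P25, and in 0 of 10 and 1 of 9 at P30. The part of age and library in the pooled counts was not tested. The 10 cells had between 46 and 449 UMIs of Ttr and between 0 and 17 UMIs of Rpe65.

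**Figure D4:**
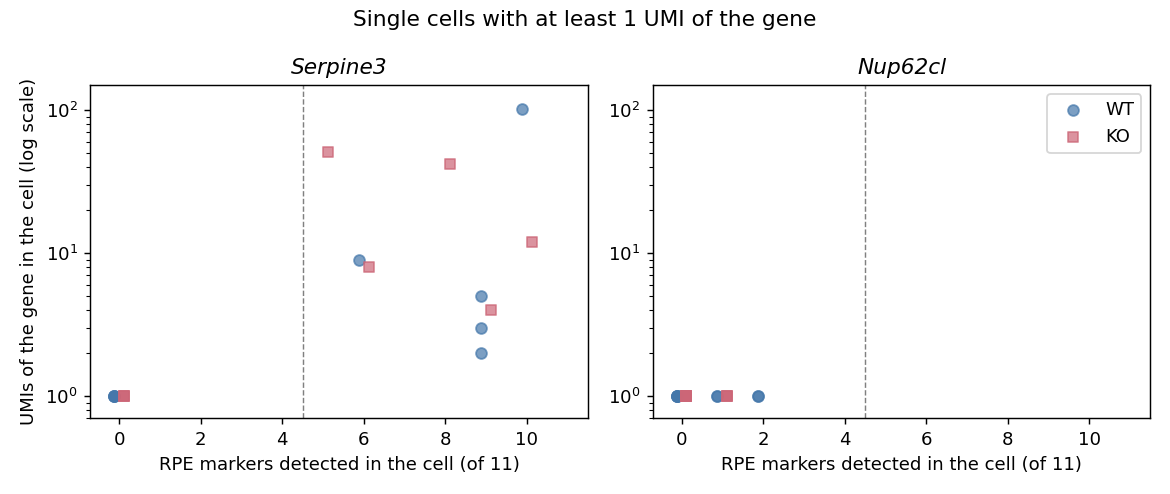
UMIs of Serpine3 (left) and Nup62cl (right) on a log axis in each single cell with at least 1 UMI of the gene, against the number of 11 RPE markers detected in that cell, for WT (blue circles) and KO (red squares); cells with equal values lie on top of each other, and the dashed line marks the limit of 5 markers. All Serpine3 cells with more than 1 UMI lie to the right of the line, and no Nup62cl cell does.

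Nup62cl was found as 18 UMIs in 18 cells, and none of these cells had more than 2 of the 11 RPE markers. WT libraries held 6, 3 and 0 UMIs at P19, P25 and P30, and KO libraries held 4, 3 and 2. These are shares of between 0 and 0.110% of cells per library. Of the 18 cells, 7 had at least 5 of 8 cone markers, where 6.38% of all cells did, and 6 had at least 7 of 9 Müller glia markers, as did 2079 of all 26764 cells. The median depth of the 18 cells was 4431 UMIs, against 2668 in all cells. The 20, 3 and 9 KO cells with RPE markers at P19, P25 and P30 held 0 Nup62cl UMIs, which allows up to 81.6, 234 and 151 CPM if UMIs were spread evenly over cells. Each limit was above the 34.2 CPM of bulk KO RPE, so a level like that was not detectable in the single cells.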

How the data were processed

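The 16 bulk libraries (4 in each of the 4 groups) and 6 single-cell libraries were used. For bulk, the authors deposited raw counts per gene. For single cells, the authors deposited natural log values of a matrix scaled to 10000 per cell. UMIs were recovered by inverting the log in 2 steps, after which 99.99998% of values were whole within 0.01. The submitters' processing notes name mm10, Cell Ranger 2.1, Seurat 3.2.2 and edgeR 3.20.9. The sources used here name neither the aligner nor the counting program. Symbols came from GENCODE M21, which matched 53620 of 53801 identifiers, and promoter windows came from RefSeq, which matched all 3 members.

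KO was compared with WT in each tissue by edgeR 4.0.16 in R 4.3.3 (TMM, default count filter, quasi-likelihood test, Benjamini-Hochberg adjustment over all genes tested). A DEG had adjusted p below 0.05 and at least a 1.5-fold change, and "rose" or "fell" means adjusted p below 0.05. CPM used TMM library sizes, and TPM used exon lengths. DESeq2 1.42.0, limma 3.58.1, other filters and scalings, leaving out libraries and a replicate block were alternatives. The code was tested on simulated counts. Single cells and figures used Python 3.11.15 with scipy 1.17.1, matplotlib 3.10.9, pandas 2.3.3 and numpy 2.4.6. No doublet caller was run.

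Named genes were the members, at most 5 called genes per list and tissue, Nup62 and Serpine2, chromosomal neighbours (5 on each side), the genes adjoining the members in rank and the 5 genes most alike to each. Members and lists were chosen with earlier results of these data known, and the 11 RPE markers for cells after the cells were seen. Same-numbered WT and KO libraries deviated together (correlations of 0.157 to 0.218 in the retina and 0.287 to 0.655 in the RPE). They were also of the same sex, and only 3 of 4 WT retina and 1 of 4 WT RPE libraries correlated best with their own number. Whether the numbers mark pairs is thus not settled. The main tests did not pair the libraries, and the replicate block was the alternative that did. At 95%, intervals cover counting error only. Some results of the named genes are not reported here.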

Additional observations from a re-analysis of the deposited data

How the results depend on the processing

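In the RPE, the 3 members kept their direction under every alternative run. They were chosen on these same libraries for large changes without overlap, so this follows from the choice and is no test. The values that moved by more than the spread between libraries were Nup62cl relative to Rpe65 (7.46 on the log2 scale), Gm34280 relative to Rpe65 (5.76) and without WT RPE replicates 2 and 3 (5.82), and Serpine3 without WT RPE replicates 2 and 4 (-3.44). In the retina no member passed a test under any alternative, and leaving out 1 library each gave log2 fold changes of Serpine3 between -1.01 and -0.15. With the replicate block the value was -0.52 (adjusted p = 0.476, edgeR). The block gave 1979 DEGs in the retina against 1946, and 934 in the RPE against 944. Of the tests printed for single genes, it changed the calls of Frmpd3 and Gm5802 in the RPE and no other.

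The number of DEGs in the RPE rose to 1441 with the DESeq2 Wald test and to 1571 with both tissues in 1 fit, and leaving out 1 library each gave between 563 and 1677. The highest was without WT RPE replicate 1, where 64.2% of DEGs were higher in KO against 40.6%, and the lowest were without KO RPE replicates 4 (563) and 2 (588). The cause was not tested. In the retina, library totals without TMM moved the median of all genes by 0.11 and the share of higher DEGs from 69.7% to 82.2%, and 1 fit over both tissues gave 79.9%. In cells with at least 6 RPE markers, Serpine3 had 186 UMIs against 237, and with at least 4 it had 237. Counts near 0 limit Nup62cl and Gm34280 in WT RPE and in the retina, and few RPE cells limit the single-cell values.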
